A study of Mus musculus with 8 samples.

Results

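Selectins and leukocyte adhesion receptors were examined as 8 genes, all of them found among the 23337 gene symbols of the deposited table. They were taken by name, with no measured value in the rule: the selectins Sele and Selp, the immunoglobulin-family receptors Icam1 and Vcam1, the storage-granule protein gene Vwf, the selectin ligand gene Selplg and the integrin genes Itga4 and Itgb2. Transcriptomes came from cells sorted as endothelial from whole mouse embryos at embryonic stage E15.5. In the tamoxifen group, pregnant mice had received tamoxifen by gavage at E12.5. In the group without tamoxifen they had not. Per the design text both groups were Cdh5-CreERT2(PAC);Rosa26fsTRAP transgenic mice, while the genotype field of every sample reads wild type. CreERT2 is a Cre recombinase that tamoxifen switches on, expressed here from sequences of Cdh5, an endothelial gene, and Rosa26fsTRAP is a tagging allele that Cre opens. Drug and recombinase activity therefore cannot be told apart, and there was no group without the alleles. The labels list 4 samples per group and do not say whether embryos were pooled or came from separate litters, so a p-value here reflects only sample-to-sample spread, which may be technical.

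The header of the table is 1 field short, and its names can be placed over the value columns in 2 ways. Both placements give the same group to 6 libraries, called here tamoxifen_1 to tamoxifen_3 and no_tamoxifen_1 to no_tamoxifen_3. Columns 6 and 10 change their name with the placement and are shown apart. Between 12212472 and 19908404 reads fell in genes in each of the 6, of which Rn45s, the ribosomal RNA precursor, made up 29.4% to 38.7%. The sorts were mixed. Summed over 14 endothelial markers, the levels lay between 8610 and 21206 normalised reads with tamoxifen and between 12680 and 20196 without it, with no marker at 0 in any library. The 13 macrophage markers found lay between 34901 and 55590 in sum with tamoxifen and between 45093 and 53215 without it. The 11 granulocyte markers found lay between 59997 and 76949 in sum with tamoxifen and between 53229 and 91811 without it. No macrophage or granulocyte marker was at 0 in any of the 6 libraries. A difference in a bulk sample can be fewer cells of a type or less RNA per cell, which cannot be told apart.

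White blood cells leave the blood in steps. Selectins on activated endothelium catch passing cells by their sugar-bearing ligands and let them roll, and chemokines then switch on leukocyte integrins, which grip immunoglobulin-family receptors on the vessel wall. P-selectin is stored with von Willebrand factor in Weibel-Palade bodies of endothelial cells and in platelet granules, while E-selectin is made anew after inflammatory stimulation through NF-kB. Integrin beta 2 pairs with several alpha chains and binds ICAM-1, and integrin alpha 4 pairs with beta 1 to bind VCAM-1.

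The start regions of the inducible receptors are shown because cytokine control of these genes is known to act there. RefSeq promoter entries on GRCm38.p6 were found for 4 of the 8 genes, Sele, Selp, Icam1 and Itga4. Entries for Vcam1, Vwf, Selplg and Itgb2 were not used here. The 250 bases before the start are printed on the plus strand for 3 of them, from chr1:164047984-164048233 for Sele, chr1:164115014-164115263 for Selp and chr9:21015690-21015939 for Icam1. Capitals mark matches on either strand to 6 motifs. For NF-kB these were GGG and CC with any 5 bases between them, called here the long NF-kB motif, and the stricter GGAATTTCC. The letters searched for AP-1 were TGANTCA. Those of the TATA box were TATAAA. The ETS family had AGGAAG, and the GATA family had AGATAA.
Sele: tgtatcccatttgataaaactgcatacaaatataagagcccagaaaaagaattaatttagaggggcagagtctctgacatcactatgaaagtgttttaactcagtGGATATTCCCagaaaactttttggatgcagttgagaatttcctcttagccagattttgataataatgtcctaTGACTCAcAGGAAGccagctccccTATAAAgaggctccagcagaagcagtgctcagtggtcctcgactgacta
Selp: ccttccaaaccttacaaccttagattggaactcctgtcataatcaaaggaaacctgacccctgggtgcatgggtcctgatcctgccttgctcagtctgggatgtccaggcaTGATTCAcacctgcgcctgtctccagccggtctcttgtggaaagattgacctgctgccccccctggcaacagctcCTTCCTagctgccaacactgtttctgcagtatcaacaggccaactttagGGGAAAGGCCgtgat
Icam1: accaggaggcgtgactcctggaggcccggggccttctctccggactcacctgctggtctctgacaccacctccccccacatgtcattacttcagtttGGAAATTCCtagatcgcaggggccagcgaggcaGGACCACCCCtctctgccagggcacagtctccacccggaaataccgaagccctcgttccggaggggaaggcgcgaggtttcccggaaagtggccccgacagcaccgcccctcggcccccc
Sele held a long NF-kB match on the minus strand, reading GGGAATATCC, at 145 to 136 bases before the start. It also held an AP-1 match at 73 to 67, an ETS match at 65 to 60 that does not overlap it, and a TATA match at 49 to 44. Selp held an AP-1 match at 139 to 133, an ETS match at 64 to 59 on the minus strand and a long NF-kB match, GGGAAAGGCC, at 15 to 6. Icam1 held GGAATTTCC on the minus strand at 153 to 145 and a long NF-kB match, GGGGTGGTCC, at 120 to 111. Itga4 held none of the 6 motifs in this window. Of 32851 promoter windows of this length, 45.8% hold the long NF-kB motif, 0.286% the stricter one, 6.75% the AP-1 letters, 12.4% the TATA letters, 29.5% the ETS letters and 9.99% the GATA letters. A match is a description of letters and not a bound site.

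None of the 8 genes passed an adjusted p of 0.05 in limma between the tamoxifen libraries and those without it. In that test 0.0445% of 13480 genes passed, 6 in all. Of the 8 genes, 0 had an unadjusted p under 0.05 in limma, against 1215 of the 13480 genes. On recovered reads edgeR and DESeq2 also called 0 of the 8, where they passed 0.0371% and 2.04% of all genes. The selectins had the largest fitted differences of the 8, Sele at 1.78-fold and Selp at 1.70-fold higher with tamoxifen, and both rested on tamoxifen_1 and tamoxifen_2. Of the 8 log2 fold changes, 6 were positive and 2 negative, against 46.5% positive over all genes tested, and their median was 0.18 against -0.021 over all genes. For each of the 8 genes the values of the 2 groups overlapped, whereas 13.9% of all genes tested had groups that did not overlap.

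Levels between genes were compared per kb of transcript. Icam1 was the most abundant, at a mean of 779 normalised reads per kb over the 6 libraries and above 95% of the 12194 tested genes with a known transcript length. Itgb2 at 398, Itga4 at 392 and Selplg at 387 per kb were next, and their ranges over libraries, 292 to 489, 318 to 422 and 329 to 457, overlapped throughout. Vwf at 127 and Vcam1 at 125 per kb came after them, again with overlapping ranges of 70.3 to 181 and 88.2 to 169. The selectins were lowest. Sele had 24.4 per kb (13.7 to 51.7) and Selp 14.6 per kb (8.80 to 25.6), above 23.1% and 15.7% of the tested genes. Neighbours within each of these 3 tiers did not differ beyond their spread, while the lowest library of each tier lay above the highest library of the tier under it.

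**Figure D1:**
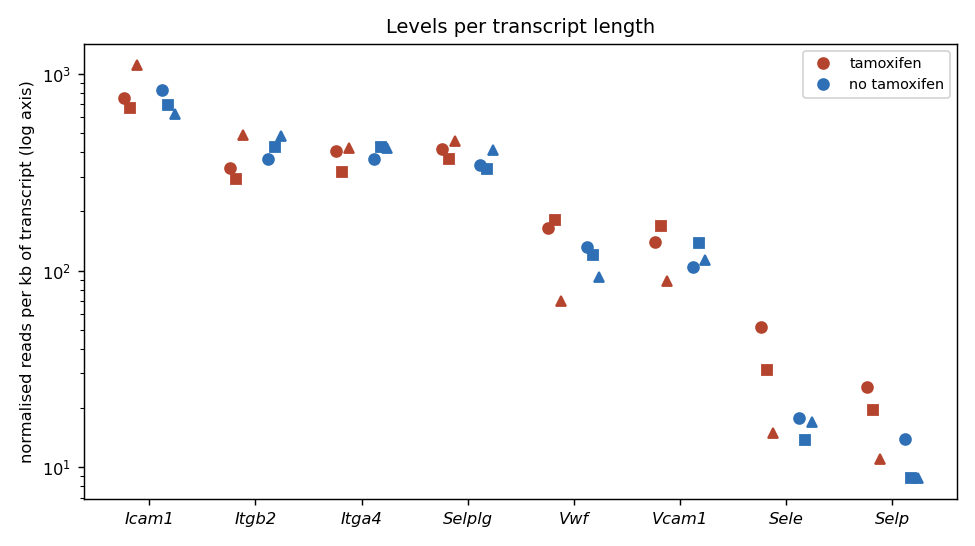
Normalised reads per kb of transcript on a log axis for the 8 genes, with tamoxifen libraries in red and libraries without tamoxifen in blue. Circles, squares and triangles are replicates 1, 2 and 3 of a group. Icam1 lies highest, at a mean of 779 per kb, and Sele and Selp lowest, at 24.4 and 14.6 per kb.

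The endothelial selectins were the genes that varied most between libraries. Sele (ENSMUSG00000026582.6), which encodes E-selectin and lies on chromosome 1 at 164048234 to 164057677 on the plus strand of GRCm38, had 151, 91.2 and 43.5 normalised reads in the tamoxifen libraries. Without tamoxifen it had 52.1, 40.0 and 49.5 normalised reads. The first and second tamoxifen libraries were above every library without tamoxifen, and tamoxifen_3 lay among them. Sele averaged 95.1 ± 53.7 normalised reads with tamoxifen and 47.2 ± 6.36 without it (SD, n = 3 each). Its log2 fold change was 0.83 ± 0.42 (SE, limma adjusted p = 0.580), and the 95% interval of the fold ran from 0.924 to 3.44. These values stand on 37 to 147 recovered reads per library. Counting error alone gave 127 to 177 for tamoxifen_1 and 73.9 to 111 for tamoxifen_2, against 39.7 to 67.0 for no_tamoxifen_1, the highest of the other group (exact Poisson 95% intervals, in normalised reads).

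Selp (ENSMUSG00000026580.16), the P-selectin gene, lies on the same chromosome at 164115264 to 164150026, also on the plus strand. It had 88.1, 67.5 and 37.9 normalised reads in the tamoxifen libraries and 47.7, 30.2 and 30.4 in those without tamoxifen. The order within the tamoxifen group was that of Sele, and the third library again fell inside the range of the other group. Selp averaged 64.5 ± 25.3 normalised reads with tamoxifen and 36.1 ± 10.03 without it (SD, n = 3 each), a log2 fold change of 0.77 ± 0.36 (SE, limma adjusted p = 0.575). The 95% interval of the fold ran from 0.957 to 3.04. The gene overlaps the antisense gene Gm16548, which had 30.9 to 44.1 normalised reads with tamoxifen and 23.8 to 41.9 without it. The sources used here do not give whether counting used strand, so reads of Selp and Gm16548 may not be cleanly divided. Sele per read of Selp was 1.71, 1.35 and 1.15 with tamoxifen and 1.09, 1.32 and 1.63 without it, so the ratio overlapped between groups.

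Markers of mesenchymal cells were high in the libraries where the selectins were high. All 12 mesenchymal markers had a positive difference, and their mean log2 level was 9.91 in tamoxifen_1 and 10.4 in tamoxifen_2, where the selectins were high. It was 6.59 in tamoxifen_3 and 5.38 to 6.69 without tamoxifen. The mesenchymal markers summed to 4934 to 90888 normalised reads with tamoxifen and 2395 to 5093 without it, with none at 0. The 9 mural cell markers had a mean log2 level of 7.28, 7.37 and 4.64 with tamoxifen and 5.93, 5.29 and 4.97 without it, with 8 of 9 differences positive. The mean log2 level of the 10 lymphoid and progenitor markers was also highest in the first and second tamoxifen libraries. It was 9.03, 8.76 and 8.06 with tamoxifen and 7.62, 8.02 and 7.89 without it, with 6 differences positive and 4 negative. The part of the mural and lymphoid markers in the selectin values was not tested. With the mesenchymal level as a covariate the log2 fold change of Sele was -0.15 ± 0.40 (SE, limma adjusted p = 0.908) and that of Selp -0.059 ± 0.42 (SE, limma adjusted p = 0.968). The mesenchymal level was high in the same libraries as the selectins, so this fit cannot tell the 2 apart. The part of mesenchymal cells in the selectin values was not tested. With the endothelial level as a covariate Sele was at 0.88 ± 0.27 (SE, limma adjusted p = 0.0621) and Selp at 0.81 ± 0.27 (SE, limma adjusted p = 0.0901), and with the macrophage level they were at 0.35 ± 0.32 and 0.44 ± 0.35 (SE, limma adjusted p = 0.777 and 0.727). With tamoxifen_3 left out, Sele was at 1.30 ± 0.28 (SE, limma adjusted p = 0.00654) and Selp at 1.11 ± 0.32 (SE, limma adjusted p = 0.0344). In that comparison of 2 libraries with 3, 10.7% of all genes passed. The megakaryocyte and platelet markers, of a lineage that also makes P-selectin and von Willebrand factor, were at a mean log2 level of 6.70 to 6.77 with tamoxifen and 7.07 to 7.24 without it. Their part in the selectin values was not tested.

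Icam1 and Vcam1 encode the counter-receptors of the leukocyte integrins. Icam1 (ENSMUSG00000037405.8, chromosome 9 at 21015985 to 21028817, plus strand) had 1907, 1695 and 2819 normalised reads with tamoxifen and 2095, 1763 and 1577 without it. Here tamoxifen_3 was the highest of the 6 libraries, while the other two lay within the range of the group without tamoxifen. Icam1 averaged 2140 ± 597 normalised reads with tamoxifen and 1812 ± 262 without it (SD, n = 3 each), with a log2 fold change of 0.21 ± 0.19 (SE, limma adjusted p = 0.758). Its neighbours Icam4 and Icam5, which encode red-cell and neuronal relatives of ICAM-1, were low. Icam4 had 25.6 to 66.6 normalised reads with tamoxifen and 25.9 to 37.3 without it, and Icam5 54.7 to 64.5 with tamoxifen and 23.6 to 40.8 without it.

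Vcam1 (ENSMUSG00000027962.14, chromosome 3 at 116109949 to 116129688, minus strand) had 569, 691 and 361 normalised reads with tamoxifen and 428, 567 and 461 without it. Its lowest value was in tamoxifen_3 and its highest in tamoxifen_2, so the tamoxifen group enclosed the other. Vcam1 averaged 539.9 ± 167 normalised reads with tamoxifen and 485 ± 72.8 without it (SD, n = 3 each), a log2 fold change of 0.11 ± 0.23 (SE, limma adjusted p = 0.907). The sign turned to -0.090 without tamoxifen_2.

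Vwf encodes von Willebrand factor, the multimeric protein that tethers platelets and fills Weibel-Palade bodies. The gene (ENSMUSG00000001930.17) spans chromosome 6 from 125546774 to 125686679 on the plus strand. Vwf had 1459, 1595 and 621 normalised reads with tamoxifen and 1164, 1059 and 819 without it. The first and second tamoxifen libraries were above all those without tamoxifen and the third was below all of them. Vwf averaged 1225 ± 528 normalised reads with tamoxifen and 1014 ± 177 without it (SD, n = 3 each), a log2 fold change of 0.17 ± 0.33 (SE, limma adjusted p = 0.899). Without tamoxifen_3 it was 0.60 ± 0.15 (SE, limma adjusted p = 0.0127), where 10.7% of all genes passed. Without tamoxifen_1 or tamoxifen_2 its sign was negative, at -0.011 and -0.076. With the mesenchymal level as a covariate Vwf was lower, at -0.89 ± 0.16 (SE, limma adjusted p = 0.00115), where 4.78% of all genes passed. The limit given for the selectins in that fit holds here too. Cdh5, the endothelial cadherin gene, was likewise lowest in tamoxifen_3, at 5201, 4778 and 1978 normalised reads with tamoxifen and 5020, 4282 and 2948 without it.

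**Figure D2:**
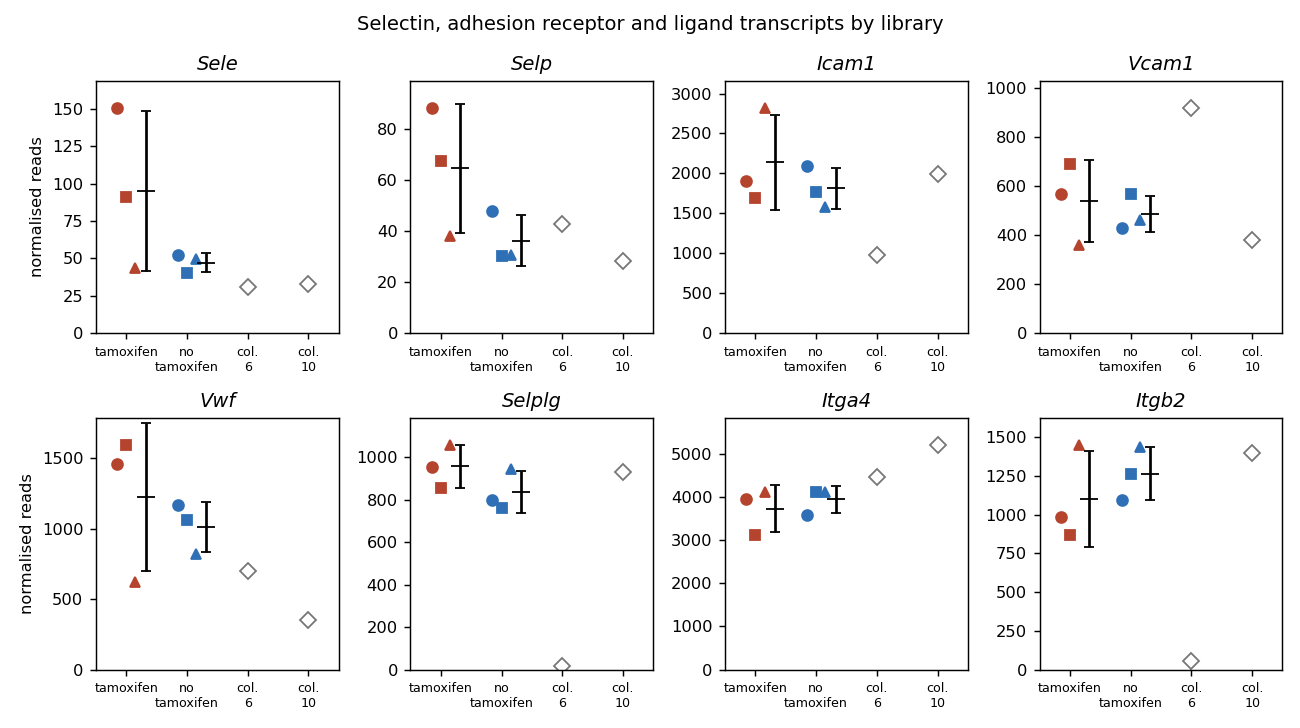
Normalised reads of the 8 genes in each library, with tamoxifen in red, no tamoxifen in blue, and columns 6 and 10 as open grey diamonds. Circles, squares and triangles are replicates 1, 2 and 3, and black bars give the mean and SD of 3 libraries. Sele had 151 and 91.2 in the first and second tamoxifen libraries and 43.5 in the third, against 40.0 to 52.1 without tamoxifen.

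On the leukocyte side Selplg and Itga4 were steadier, with the highest library at 1.39 and 1.33 times the lowest. For Itgb2 it was 1.67 times. Selplg (ENSMUSG00000048163.13, chromosome 5 at 113818536 to 113832644, minus strand) encodes PSGL-1, the main ligand of P-selectin on white blood cells. It had 955, 856 and 1058 normalised reads with tamoxifen and 800.0, 761 and 945 without it. The highest value was a tamoxifen library, and the groups overlapped through no_tamoxifen_3. Selplg averaged 956 ± 101 normalised reads with tamoxifen and 835 ± 97.2 without it (SD, n = 3 each), a log2 fold change of 0.20 ± 0.13 (SE, limma adjusted p = 0.658). Every tamoxifen library was above every library without tamoxifen in the mean log2 level of the lymphoid and progenitor markers given above, and their part in the Selplg values was not tested.

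Itga4 (ENSMUSG00000027009.18, chromosome 2 at 79255426 to 79333123, plus strand) encodes the alpha 4 integrin chain, which lymphoid, myeloid and progenitor cells carry. It had 3955, 3110 and 4114 normalised reads with tamoxifen and 3583, 4121 and 4111 without it. The lowest value was tamoxifen_2, and the remaining values lay close together. Itga4 averaged 3726 ± 540 normalised reads with tamoxifen and 3938 ± 308 without it (SD, n = 3 each), a log2 fold change of -0.088 ± 0.13 (SE, limma adjusted p = 0.869). The gene overlaps Cerkl on the other strand, which had 44.7 to 92.2 normalised reads with tamoxifen and 52.1 to 71.5 without it. Itgb1, its usual partner chain, had 3931 to 4479 normalised reads with tamoxifen and 4038 to 5963 without it.

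Itgb2 (ENSMUSG00000000290.13, chromosome 10 at 77530252 to 77565708, plus strand) encodes the beta 2 chain shared by the leukocyte integrins LFA-1 and Mac-1. It had 985, 867 and 1451 normalised reads with tamoxifen and 1095, 1265 and 1436 without it. The first and second tamoxifen libraries were below every library without tamoxifen, and the third was above every one. Itgb2 averaged 1101 ± 309 normalised reads with tamoxifen and 1265 ± 170.5 without it (SD, n = 3 each), a log2 fold change of -0.23 ± 0.19 (SE, limma adjusted p = 0.740). Without tamoxifen_3 it was -0.44 ± 0.14 (SE, limma adjusted p = 0.0475), where 10.7% of all genes passed. The macrophage markers were likewise lowest in the first and second tamoxifen libraries and highest in the third, with a mean log2 level of 10.5 in tamoxifen_1, 10.5 in tamoxifen_2, 11.2 in tamoxifen_3 and 10.9 to 11.1 without tamoxifen. Its partner chains followed in part. Itgam, the Mac-1 alpha chain, had 983, 894 and 1634 normalised reads with tamoxifen and 1349, 1645 and 1581 without it, and Itgal, the LFA-1 alpha chain, had 1756 to 1974 with tamoxifen and 1631 to 2109 without it.

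**Figure D3:**
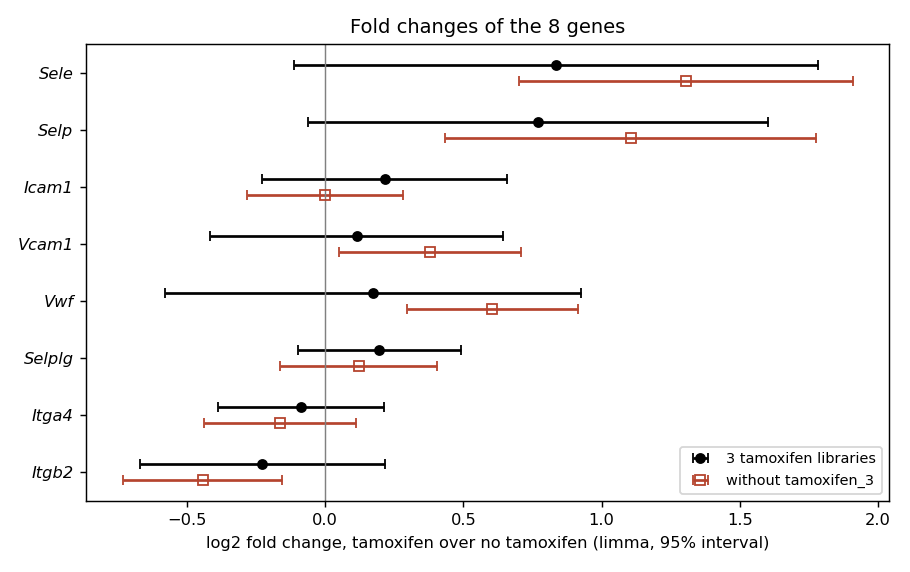
Limma log2 fold changes of the 8 genes, tamoxifen over no tamoxifen, with 95% intervals, from all 6 libraries in black and without tamoxifen_3 in red. All 8 black intervals include 0. Without tamoxifen_3, Sele, Selp, Vwf and Itgb2 passed an adjusted p of 0.05, where 10.7% of all genes passed.

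Spread within groups differed between the genes. The SD of log2 values within the tamoxifen group was 0.89 for Sele, 0.75 for Vwf, 0.61 for Selp and 0.48 for Vcam1, and within the group without tamoxifen it was 0.20 for Sele, 0.26 for Vwf, 0.37 for Selp and 0.21 for Vcam1. Over all genes tested the median SD was 0.21 with tamoxifen and 0.18 without it. Selplg had an SD of 0.15 with tamoxifen and 0.16 without it, and its highest library was 1.39 times its lowest. For Sele that ratio was 3.77. Itgb2 had an SD of 0.39 with tamoxifen and 0.20 without it, and Icam1 had 0.38 and 0.21.

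Among the 8 genes, each selectin had the profile nearest to that of the other. Likeness was measured as the root mean square difference of mean-centred log2 values over the 6 libraries, where 0 is an identical profile. It was 0.234 between Sele and Selp, and of 10252 candidate genes averaging 50 or more normalised reads, 4 were closer to Sele and 31 closer to Selp. The difference was 0.457 between Sele and Vwf and 0.378 between Selp and Vwf. It was larger between Sele and Icam1, at 0.782, and between Sele and Itgb2, at 0.899. Vcam1 stood nearest to Vwf among the 8, at 0.261, and Itgb2 nearest to Itga4, at 0.175.

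Nearest genes in the whole table were named by the same measure for 7 of the 8 genes. For Sele these were Plekha7, an adherens junction adaptor gene, at 0.189 and Mfsd2b, a sphingosine-1-phosphate exporter gene, at 0.197. For Selp they were Prickle1, a planar polarity gene, at 0.127 and Dusp4, a MAP kinase phosphatase gene, at 0.154. For Vwf they were Mapk11, a p38 kinase gene, at 0.0367 and Plekhg1 at 0.0449. For Vcam1 they were the small GTPase gene Rras at 0.0706 and the beta 3 integrin gene Itgb3 at 0.0709. For Icam1 they were the matrix protein gene Ecm1 at 0.101 and the syndecan gene Sdc4 at 0.102. For Selplg they were Rnf167 at 0.0230 and Tuba1b at 0.0336, and for Itga4 Lig3 at 0.00897 and Imp4 at 0.0222. Flat profiles have many near neighbours, and the median difference to all candidates was 0.214 for Itga4 and 0.723 for Sele.

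Since the share of endothelial transcripts differed between libraries, the vascular genes were also set against the endothelial markers of the same library. On this scale a value is the gene's log2 level minus the mean log2 level of the 14 markers. Sele was at -2.68, -3.45 and -3.24 with tamoxifen and at -4.11, -4.30 and -3.60 without it. Selp was at -3.45, -3.88 and -3.43 with tamoxifen and at -4.24, -4.69 and -4.29 without it. Vwf was at 0.59, 0.66 and 0.57 with tamoxifen and at 0.34, 0.39 and 0.42 without it. For these 3 genes every tamoxifen library was above every library without tamoxifen, tamoxifen_3 included, and 5.96% of all genes tested behaved so on this scale.

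The mean differences relative to endothelial markers were 0.88 for Sele, 0.82 for Selp and 0.22 for Vwf. Each had an exact two-sided permutation p of 0.1, the smallest that 3 against 3 libraries allow, and 0.267 after Benjamini-Hochberg adjustment over the 8 genes. Icam1 differed by 0.26 (exact permutation p = 1) and Vcam1 by 0.16 (exact permutation p = 0.7), with overlapping groups. For Icam1 the single value of tamoxifen_3, 2.75, stood above the 0.75 to 1.36 of the 5 other libraries. Without that library its difference was -0.37.

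Column 10, kept apart, was at -2.73 for Sele, -2.95 for Selp and 0.65 for Vwf on this scale, above the whole range without tamoxifen in each case. The same held for Icam1 at 3.15 and Vcam1 at 0.76, so column 10 did not set Sele, Selp and Vwf apart from them. Endothelial markers in column 10 had a mean log2 level of 7.82, lower than in any of the 6 libraries. Column 6 was at -2.44 for Sele, -1.97 for Selp, 2.04 for Vwf, 2.52 for Icam1 and 2.43 for Vcam1. With the names over the last 8 value columns, column 6 joins the group without tamoxifen and column 10 the tamoxifen group. The differences were then 0.59 for Sele (exact permutation p = 0.257), 0.37 for Selp (exact permutation p = 0.629) and -0.18 for Vwf (exact permutation p = 1). With the names over the first 8 value columns, column 6 joins the tamoxifen group. The value column not used here would then join the group without tamoxifen, so this comparison covers that placement only in part. The differences were 1.05 for Sele, 1.22 for Selp and 0.58 for Vwf (exact permutation p = 0.0571 each, the smallest that 4 against 3 libraries allow).

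**Figure D4:**
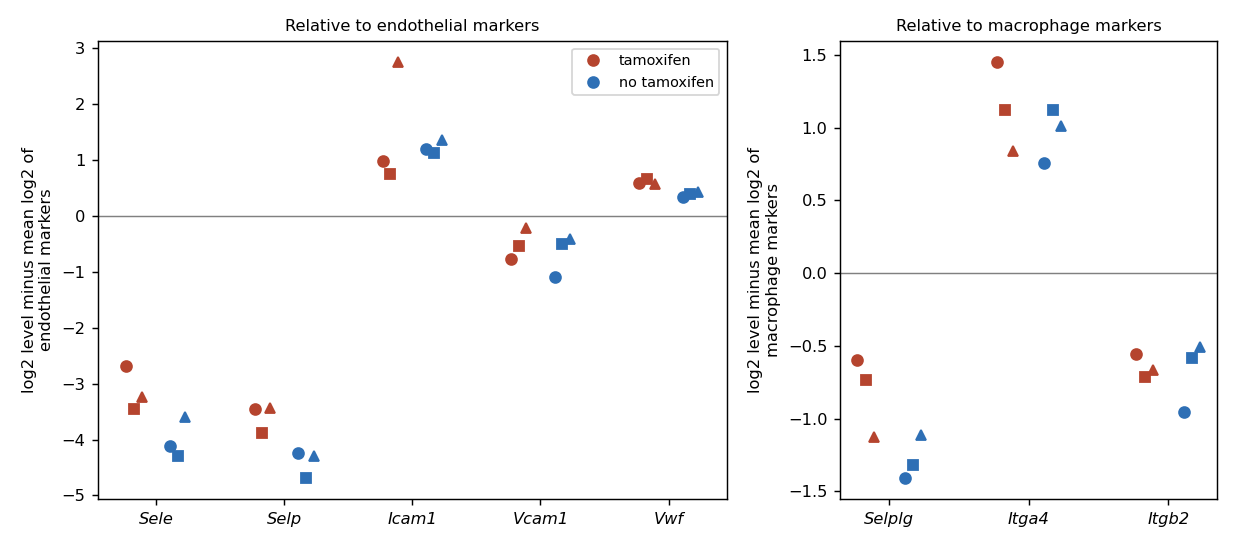
Log2 level of each gene minus the mean log2 level of endothelial markers (left) or macrophage markers (right) in the same library. Tamoxifen libraries are red and those without tamoxifen blue, with circles, squares and triangles for replicates 1, 2 and 3. For Sele, Selp and Vwf the 3 red points lie above the 3 blue points, and for Icam1 the third tamoxifen library stands at 2.75.

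The leukocyte genes were set against 13 macrophage markers in the same way. Selplg was at -0.60, -0.74 and -1.12 with tamoxifen and at -1.41, -1.32 and -1.11 without it, a difference of 0.46 (exact permutation p = 0.2). Its tamoxifen_3 value fell just inside the range of the other group. Itga4 differed by 0.17 (exact permutation p = 0.4) and Itgb2 by 0.035 (exact permutation p = 0.9). The Itga4 difference was 0.018 without tamoxifen_1, 0.33 without tamoxifen_3 and 0.071 without no_tamoxifen_1. Itgb2 per read of Csf1r, the macrophage growth factor receptor gene, was 0.121, 0.116 and 0.119 with tamoxifen and 0.0976, 0.132 and 0.122 without it. Selplg per read of Itgb2 was 0.97, 0.99 and 0.73 with tamoxifen and 0.73, 0.60 and 0.66 without it, with tamoxifen_3 and no_tamoxifen_1 touching at 0.729 and 0.731.

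Icam1 was then set against the macrophage markers too, a comparison chosen after its values were seen. It was at 0.40, 0.25 and 0.29 with tamoxifen and at -0.02, -0.10 and -0.37 without it, a difference of 0.48 (exact permutation p = 0.1, the smallest possible). The groups did not overlap, as for 7.67% of all genes tested in this direction. Icam1 per read of Csf1r was 0.235, 0.227 and 0.231 with tamoxifen and 0.187, 0.184 and 0.134 without it. In the same setting the differences were 1.10 for Sele, 1.03 for Selp, 0.38 for Vcam1 and 0.43 for Vwf, with exact permutation p values of 0.4, 0.2, 0.5 and 0.6.

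Of 108 other genes of the leukocyte adhesion pathway, 106 were in the table and 98 were tested. In limma 0 of them passed an adjusted p of 0.05. An unadjusted p under 0.05 was found for 13 of them, against 1215 of all 13480 genes tested. On recovered reads edgeR called 0 of them, where it passed 0.0371% of all genes. DESeq2 called 1, Il6, where it passed 2.04% of all genes. There were 49 positive and 49 negative log2 fold changes, with a median of -0.00037. Groups did not overlap for 10.2% of these genes, against 13.9% of all genes tested. They were 4 genes higher with tamoxifen, where 6.24% of all genes were, and 6 lower, where 7.62% of all genes were.

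By role, capture receptors and sialomucins had a median log2 fold change of 0.017 over 9 genes, glycosylation enzymes of selectin ligands 0.10 over 10, and immunoglobulin-family and transmigration receptors 0.12 over 12. Leukocyte integrins had -0.046 over 9 and integrin activation genes -0.18 over 15, of which 12 were negative. Weibel-Palade body and von Willebrand factor genes had -0.031 over 17, and inflammatory activation genes 0.029 over 26. No gene in any of the 7 groups passed.

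The 10 pathway genes of lowest p are given as not past the threshold. Il6, an inflammatory cytokine gene, had 189, 154 and 215 normalised reads with tamoxifen and 104, 73.5 and 97.4 without it, a log2 fold change of 1.01 ± 0.21 (SE, limma adjusted p = 0.315). All 3 tamoxifen libraries were above the others. DESeq2 called it, with an adjusted p of 0.0062 where DESeq2 passed 2.04% of all genes. Irf1, an interferon and NF-kB responsive transcription factor gene, was at 0.42 ± 0.12 (SE, limma adjusted p = 0.462), and Tnfaip3, which encodes the NF-kB feedback inhibitor A20, at 0.48 ± 0.16 (SE, limma adjusted p = 0.475). Il1r1, the interleukin-1 receptor gene, was at 1.06 ± 0.40 (SE, limma adjusted p = 0.505), with 178, 144 and 63.8 normalised reads with tamoxifen and 72.0, 63.7 and 38.8 without it, so that tamoxifen_3 fell inside the other group.

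Among those with negative values, the signalling adaptor gene Traf1 was at -0.83 ± 0.32 (SE, limma adjusted p = 0.516). Cyth1, which regulates beta 2 integrin adhesion, was at -0.34 ± 0.11 (SE, limma adjusted p = 0.462), and Rap1a, a GTPase of integrin activation, at -0.36 ± 0.13 (SE, limma adjusted p = 0.505). The granule fusion genes Stx4a and Vamp3 were at -0.32 ± 0.13 and -0.30 ± 0.12 (SE, limma adjusted p = 0.518 each). Cd44, the hyaluronan receptor gene, was at -0.34 ± 0.13 (SE, limma adjusted p = 0.523). For each of these 6 genes the tamoxifen libraries were all below those without tamoxifen.

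**Figure D5:**
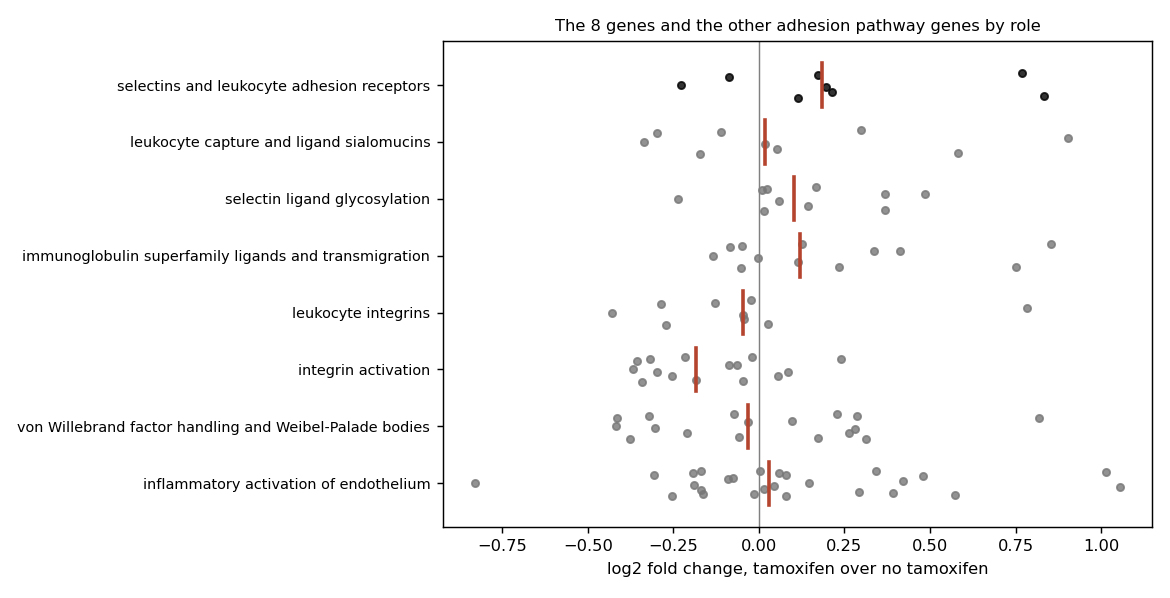
Limma log2 fold changes, tamoxifen over no tamoxifen, of the 8 genes in black and of 98 other adhesion pathway genes in grey, by role. Red bars are group medians, which run from -0.18 for integrin activation to 0.18 for the 8 genes, and no point passed an adjusted p of 0.05.

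Columns 6 and 10 gave 2 further sets of values. Column 10 had 33.0 normalised reads of Sele, 28.2 of Selp and 352 of Vwf, each below all 6 libraries, and Cdh5 was also below them, at 1097. Vcam1, at 380 there, was within their range. Its leukocyte genes stood at 931 for Selplg, 1396 for Itgb2 and 5204 for Itga4. Column 6 held 16.3 normalised reads of Selplg and 59.0 of Itgb2, with Csf1r at 151 against 7464 to 12229 in the tamoxifen libraries and 9605 to 11809 in those without. Itga4 had 4459 normalised reads there and Vcam1 919, so that Itga4 per read of Itgb2 was 75.6, against 2.84 to 4.02 with tamoxifen and 2.86 to 3.27 without it. Mesenchymal markers in column 6 had a mean log2 level of 12.2 and the 5 erythroid markers tested 11.6, against 6.26 to 6.60 for the erythroid markers with tamoxifen and 5.98 to 6.33 without it.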

How the data were processed

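RNA from cells sorted as endothelial was depleted of ribosomal RNA and sequenced, per the labels. The deposited values are a signal unit, read counts per gene symbol that the authors normalised by 1 factor per library. STAR, HTSeq 0.11.2 and DESeq2, with the builds hg38 and mm10, are named without roles in the submitters' processing notes. The header has 9 fields and each data line 10. Columns 3 to 5 (no tamoxifen) and 7 to 9 (tamoxifen) keep their group under both placements of the names, columns 6 and 10 were kept apart, and 1 value column was not used.

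Values of genes averaging 10 or more normalised reads were put on the scale log2(value + 1) and tested by limma 3.58.1 (R 4.3.3), using a mean-variance trend and Benjamini-Hochberg adjustment over 13480 genes. This scale understates the change of low genes. In each library 100% of values were whole multiples of 1 step within 0.001 reads. edgeR 4.0.16 and DESeq2 1.42.0 on those recovered reads called 5 and 275 genes. Poisson intervals cover counting error only. The limma, edgeR and DESeq2 fits with group only were tested on simulated data. Fits with covariates, blocks, left-out libraries or other header placements were not. Transcript lengths were those of the longest coding sequence in GENCODE M21 on GRCm38, also called mm10, and gene coordinates are 1-based from the same release.

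The genes and lists were chosen with earlier results of these data known. Named genes are the 8 genes, the 10 other pathway genes of lowest p with a mean of at least 50, since none passed, check genes, and 2 nearest profiles per gene, of which those of Itgb2 are not reported here. The partner chains, Icam4, Icam5, Cerkl and Gm16548 were added for position or pairing, as levels only, except that the fold change of Icam5 is also given. The alternatives were other tests, scalings, pseudocounts, filters, header placements, marker covariates and the leaving out of each library.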

Additional observations from a re-analysis of the deposited data

Results flagged for a closer look

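Values in the columns kept apart exceeded every library without tamoxifen for 2 of the 8 genes. Vcam1 had 919 normalised reads in column 6, where the highest library without tamoxifen had 567. Itga4 had 4459 normalised reads in column 6 and 5204 in column 10, where the highest library without tamoxifen had 4121. Column 6 changes its group with the placement of the header, and none of these differences was tested.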

How the results depend on the processing

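Limits come first. With 3 libraries a group the intervals of Sele and Selp span folds from under 1 to over 3, the recovered reads of Selp number 28 to 86, and tamoxifen_3 decides several calls. Over the 20 alternatives, edgeR, DESeq2, the TMM rescaling, both other pseudocounts, both other filters and the replicate block left all 8 genes on the same side of the threshold with the same sign. The median log2 fold change over all genes lay between -0.056 and 0.026 in all 20.

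Leaving out 1 library at a time gave 0 to 4 called members, 0 to 17 called pathway genes and 2 to 1442 called genes in all. The high ends, 4, 17 and 1442, came without tamoxifen_3. The log2 fold changes ranged from 0.42 to 1.30 for Sele, 0.51 to 1.11 for Selp, -0.076 to 0.60 for Vwf and -0.44 to -0.073 for Itgb2. They ranged from -0.0013 to 0.37 for Icam1, -0.090 to 0.38 for Vcam1 and -0.16 to 0.038 for Itga4. Relative to endothelial markers the ranges were -0.37 to 0.63 for Icam1 and -0.055 to 0.29 for Vcam1, and relative to macrophage markers 0.018 to 0.33 for Itga4 and -0.10 to 0.12 for Itgb2.

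With the mesenchymal level as a covariate, 1 member, 14 pathway genes and 645 genes in all were called, and values were -0.15 for Sele, -0.059 for Selp, -0.47 for Vcam1, -0.89 for Vwf, 0.14 for Itga4, 0.34 for Itgb2 and -0.064 for Il1r1. With the macrophage level, 3 pathway genes and 98 in all were called, and values were 0.35 for Sele, 0.44 for Selp, -0.21 for Vcam1, -0.30 for Vwf and 0.0035 for Itgb2. The endothelial level gave 8 pathway genes and 828 in all. DESeq2 called 1 pathway gene and 275 in all, and the replicate block 21 in all. Whether the replicate numbers pair the samples was not settled. Deviations of libraries with the same position correlated at 0.20, 0.04 and 0.34, and those with different positions at -0.33 to 0.33. With the names over the last 8 value columns values were 0.65 for Sele, 0.43 for Selp, 1.59 for Selplg, -0.23 for Vcam1, -0.12 for Vwf, 0.96 for Itgb2, 0.12 for Rap1a, 0.35 for Traf1, 0.042 for Stx4a, 0.13 for Vamp3 and 0.11 for Cd44. Relative to markers they were -0.30 for Vcam1, -0.18 for Vwf, -1.28 for Itga4 and -0.30 for Itgb2. With the names over the first 8 value columns, fitted without the unused column, 0 genes were called by limma, 555 having an unadjusted p under 0.05. Values were then 0.47 for Sele, 0.64 for Selp, -0.057 for Icam1, -1.25 for Selplg, -1.27 for Itgb2 and -0.38 for Tnfaip3. With column 10 added, values were 0.50 for Sele, 0.50 for Selp, -0.0010 for Vcam1, -0.25 for Vwf and 0.036 for Itga4. The cause of these changes was not tested.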
